A study of Drosophila melanogaster with 3 samples.

Results

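The middle-signal regions are 3673 stretches of the Drosophila melanogaster genome whose Sox100B chromatin immunoprecipitation (ChIP) signal lay just below the list that passed the irreproducible discovery rate (IDR). They were chosen by pooled signal: rows of the pooled region list ranked by descending signal from just below the last IDR rank down to rank 10000, 4317 in all, of which 644 that overlapped an IDR row were removed. They make up 3673 of the 30000 pooled rows. Embryos of both sexes, pooled and aged 6 to 16 h, came from the Sox100B-GFP strain, in which Sox100B carries a green fluorescent protein at its C terminus. The labels give 3 biological replicates of this 1 group, with whole organisms as the material, no untagged or untreated group, and Sox100B as the antibody target, while their free-text description calls the libraries an input control. Each replicate has a list of 30000 regions, and the pooled list and the shorter IDR list belong to the whole experiment. The lists hold no read counts, so the depth of the libraries is unknown.

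Sox100B belongs to group E of the Sox family, the group of vertebrate Sox8, Sox9 and Sox10. Sox proteins bind the minor groove of DNA through their HMG box and bend it, and Sox100B is known from the embryonic male gonad, the gut and the Malpighian tubules. The IDR procedure ranks regions in replicates, asks how far down the lists the ranks still agree, and keeps the regions above that depth. The middle-signal regions are the rows directly under that depth, set here beside the IDR rows above them and beside the 5000 pooled rows of lowest signal, down to rank 30000, called low-signal regions. Unlike the members, low-signal regions that overlapped an IDR row were kept, 153 of the 5000.

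A few of the windows around member summits are shown first because the results return to them. They were taken from the named members whose window held no annotated untranslated region, and they show both windows with and windows without the Sox core. Each is 101 bases of the forward strand of the RefSeq release 6 (dm6) genome centred on the summit, and capitals mark any searched pattern in either orientation. The first 3 hold the Sox core (ACAAAG, or its variant ACAATG), which reads CTTTGT in the CG14662 window.
Gk2, chr3L:1742133-1742233: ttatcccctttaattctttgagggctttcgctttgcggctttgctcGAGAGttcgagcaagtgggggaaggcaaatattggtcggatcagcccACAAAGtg
CG14275, chr2L:8326789-8326889: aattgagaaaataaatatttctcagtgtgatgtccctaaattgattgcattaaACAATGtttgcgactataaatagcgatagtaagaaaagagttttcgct
CG14662, chr3R:4996114-4996214: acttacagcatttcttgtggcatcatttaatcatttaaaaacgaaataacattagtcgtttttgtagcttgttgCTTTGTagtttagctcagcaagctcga
CG5805, chr3R:24787623-24787723: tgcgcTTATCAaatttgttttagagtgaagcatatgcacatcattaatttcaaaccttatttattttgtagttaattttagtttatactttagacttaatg
eya, chr2L:6540218-6540318: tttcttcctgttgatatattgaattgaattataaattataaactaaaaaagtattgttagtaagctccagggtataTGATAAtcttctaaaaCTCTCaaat
RpS3, chr3R:23358681-23358781: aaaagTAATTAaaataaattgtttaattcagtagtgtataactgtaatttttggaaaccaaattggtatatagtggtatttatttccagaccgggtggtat

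The pooled signal of the members, the score by which they were chosen, ran from 105.14 to 172.05 with a median of 129.93. It was 172.07 at the weakest IDR row and at most 49.793 in the low-signal regions. At the upper edge the last IDR row lay 68 bp from the transcription start site (TSS) of IKKepsilon, and the first member lay 3413 bp upstream of CG10950; both had a signal of 172.1. At the lower edge the last member, in an intron of Shrm, and the row after it, nearest to noc, both had 105.1. A q of 0.05 or less on the deposited −log10 scale was reached by 3626 of the 3673 members (98.7%), and by 33.2% of all pooled rows, as a description that follows from the ranking. Nearly all members had the standard width of 464 bp, 3653 of 3673 (99.5%), which 2973 of the IDR rows (52.3%) had.

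The members lay near promoters less often than the IDR regions and more often than the low-signal regions. The summit was within 1 kb of the TSS of a protein-coding gene in 1172 of the 3673 members, or 31.9% (95% exact binomial interval 30.4 to 33.4%). The share was 43.6% in the IDR list (2477 rows), 19.0% in the low-signal regions (948 rows) and 28.6% in the whole pooled list. The members were thus 11.7 percentage points below the IDR list (interval 9.68 to 13.6; two-sided Fisher's exact test, p = 6.14e-30) and 12.9 points above the low-signal regions (interval 11.1 to 14.8; p = 2.86e-43). These tests treat regions as independent, which neighbouring regions are not, and the intervals cover counting error only. Rows that overlapped an IDR row were removed from the members and not from the low-signal regions. The part of that removal in both differences was not tested.

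The same order was found in each replicate's own list, ranked by its own signal. Regions of the same ranks outside the IDR rows had promoter shares of 34.7, 35.9 and 36.8% in replicates 1, 2 and 3 (mean 35.8% ± 1.07, SD, n = 3). Regions ranked above that band, as many as the IDR list holds, had 48.0% ± 1.19 (SD, n = 3), and the 5000 of lowest rank had 21.6% ± 1.06 (SD, n = 3). The bands did not overlap between any of the 3 replicates, and their gaps were several times the spread between replicates.

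**Figure D1:**
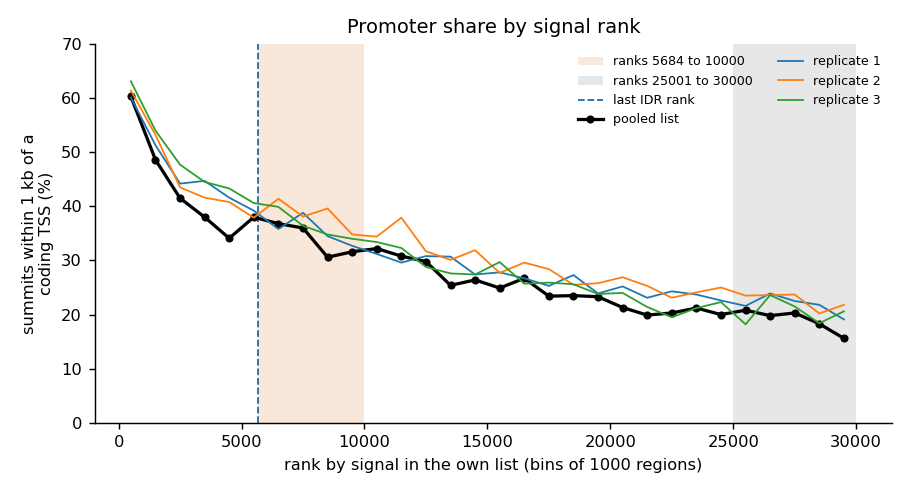
Share of regions with the summit within 1 kb of a protein-coding TSS (y axis, percent) in bins of 1000 regions by signal rank (x axis), for the pooled list (black, with points) and the lists of replicates 1 to 3; shading marks the ranks of the members and of the low-signal regions, and the dashed line the last IDR rank. The pooled share falls from 60.3% in the first bin and shows no step at the dashed line, with 38.0% at ranks 5001 to 6000, the bin that spans the line. The curves include the rows removed from the members for an overlap with an IDR row.

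No step was seen at the edge of the IDR list in the plot of promoter share by rank. In the pooled list the share was 34.1% at ranks 4001 to 5000, 38.0% at ranks 5001 to 6000 and 36.8% at ranks 6001 to 7000. Cut by rank into 4 parts of equal size, the members had promoter shares of 34.9, 33.4, 29.4 and 29.8% from the strongest to the weakest, with overlapping intervals between neighbours. With the IDR rows split at their median signal, the members minus the weaker IDR rows gave -4.40 points (p = 0.000218) and the members minus the stronger ones -19.0 points (p = 5.37e-54), both by Fisher's exact test. Against the pooled rows just below them, down to rank 15000, they were 2.99 points higher (Fisher's exact test, p = 0.00286). The bins and the pooled rows down to rank 15000 kept rows that overlapped an IDR row, while the members did not. The part of that removal in these differences was not tested.

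Away from the start sites the members again took an intermediate place. The median distance from summit to nearest coding TSS was 2558 bp, against 1438 bp in the IDR list and 4030.5 bp in the low-signal regions. The IDR list led most at 101 to 250 bp from the TSS, with 14.4% of its rows there, 7.98% of the members and 3.06% of the low-signal regions. Of the 1172 promoter members 734 (62.6%, interval 59.8 to 65.4%) had the summit upstream of the TSS. That share was 75.6% (interval 73.8 to 77.3%) among promoter rows of the IDR list and 52.95% (interval 49.7 to 56.2%) among those of the low-signal regions. Over all promoter rows of the pooled list it was 62.5%, the members' own level.

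**Figure D2:**
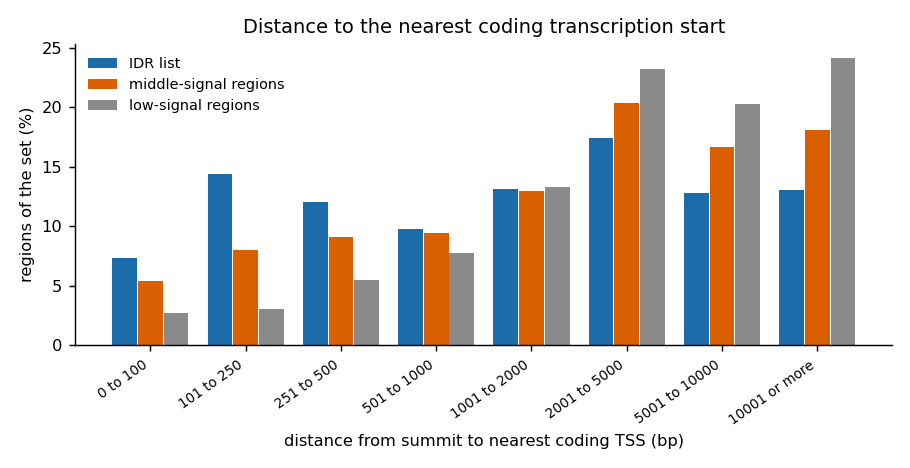
Percent of each set (y axis) by distance from the summit to the nearest protein-coding TSS in bp (x axis, 8 classes) for the IDR list, the members and the low-signal regions. The members lie between the other sets in every class except 1001 to 2000 bp, where they had 12.959% of their regions, the smallest share of the 3 sets.

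Introns held 54.6% of the member summits (2005), intergenic DNA 35.7% (1313), 5′ untranslated regions (UTRs) 6.34% (233), 3′ UTRs 2.53% (93) and coding sequence 0.790% (29). Of the low-signal regions 3.06% lay in coding sequence (Fisher's exact test, adjusted p = 1.74e-13). The IDR list had 0.422% there (Fisher's exact test, adjusted p = 0.0409). These and the following p-values carry a Benjamini-Hochberg adjustment over 12 comparisons. The 5′ UTR share was above both the IDR list (5.01%; Fisher's exact test, adjusted p = 0.0126) and the low-signal regions (3.76%, adjusted p = 2.48e-07). The 3′ UTR share was above the IDR list (1.50%; Fisher's exact test, adjusted p = 0.00137) and below the low-signal regions (4.62%, adjusted p = 1.16e-06). Ranks were also taken without one replicate. The pooled rows were then ordered by the mean rank of their best overlapping regions in the other lists, and not by pooled signal. Under these rankings the differences above kept their direction and passed the test, while several changed in size by over 1.5 times. The loss of a replicate and the change of ranking measure cannot be told apart here. For coding sequence the difference from the IDR list went from 0.37 to 0.81 points without replicate 2, and that from the low-signal regions from -2.27 to -1.40. The 5′ UTR differences went from 1.33 to between 2.05 and 2.19 points from the IDR list and from 2.58 to between 4.06 and 4.27 from the low-signal regions, without replicates 1, 2 and 3 alike. The 3′ UTR difference from the IDR list went from 1.04 to 0.68 points without replicate 1, and that from the low-signal regions from -2.09 to -3.98. In the replicates' own middle bands coding sequence held 1.39% ± 0.106 and 3′ UTRs 3.47% ± 1.21 (SD, n = 3).

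The intron share did not pass the test against either set: the difference was 0.14 points from the IDR list (interval -1.92 to 2.21; Fisher's exact test, adjusted p = 0.899) and 0.37 points from the low-signal regions (interval -1.75 to 2.49; adjusted p = 0.811). Against the low-signal regions, this changed to a difference of 3.45 points (Fisher's exact test, adjusted p = 0.0074) when ranks were taken without replicate 1. Intergenic summits were 2.88 points less frequent than in the IDR list (Fisher's exact test, adjusted p = 0.0123), and the difference was -4.62 points without replicate 1. Against the low-signal regions the intergenic difference was 1.41 points (Fisher's exact test, adjusted p = 0.268). It turned negative under the rankings without replicate 1, 2 or 3, which also change the ranking measure, at -1.85, -0.656 and -2.30 points. The X chromosome carried 17.7% of the members (651), against 18.1% of the IDR list and 16.9% of the low-signal regions (Fisher's exact test, adjusted p = 0.811 and 0.457). The X difference from the low-signal regions was 0.78 points and turned negative without replicate 1, 2 or 3, at -0.319, -1.83 and -0.516 points. On the small chromosome 4 the members numbered 73 (1.99%), against 28 in the IDR list (0.493%) and 150 in the low-signal regions (3.00%); this was not among the comparisons tested.

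The bases around the summit also differed between the sets. Mean GC content of the 201-base summit windows was 34.4% in the members, 33.2% in the IDR list and 37.0% in the low-signal regions. A summit inside an annotated transposable element was found for 33 members (0.898%, interval 0.619 to 1.26%), against 0.440% of the IDR list and 2.12% of the low-signal regions.

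Replicate support was described and not tested, because the pooled signal that chose the members and the replicate lists come from one experiment. A member counted as supported by a replicate when a region of rank 1 to 10000 in that list overlapped it by at least 1 bp. Support came from all 3 replicates for 618 members (16.8%), from 2 for 1559 (42.4%), from 1 for 1261 (34.3%) and from none for 235 (6.40%). Support by all 3 was 25.9% in the whole pooled list, 93.9% in the IDR list and 3.26% in the low-signal regions, of which 87.5% had none. The low-signal regions include the 153 that overlap an IDR row. Most members were thus within the first 10000 of some replicates and outside them in others.

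**Figure D3:**
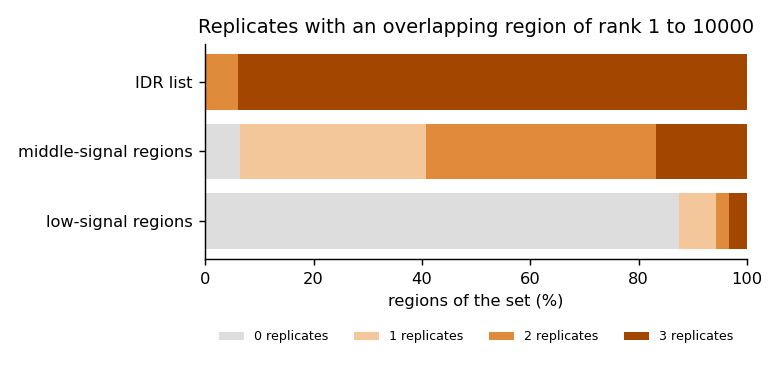
Percent of each set (x axis) with 0, 1, 2 or 3 replicates (shades) in which a region of rank 1 to 10000 overlaps the pooled row. The members are spread over all 4 classes, with 16.8% in the darkest, while 93.9% of the IDR list is there and 87.5% of the low-signal regions have no such replicate.

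Every replicate supported members, replicate 2 the most. Single replicates 1, 2 and 3 supported 53.7, 62.8 and 53.2% of the members (mean 56.6% ± 5.37, SD, n = 3). Support by 1 replicate alone was seen for 367, 510 and 384 members in that order. The pairs of replicates 1 and 2, 1 and 3, and 2 and 3 alone supported 606, 382 and 571. Requiring only the 2 other replicates gave 32.4, 27.2 and 33.3% without replicate 1, 2 and 3; 2 lists are by construction easier to satisfy than 3.

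Within the band, support was lower at lower pooled signal, as the ranking implies. Of the same 4 parts, all 3 replicates supported 42.0% of the strongest, 17.6% of the next, 5.01% of the one after and 2.61% of the weakest. When any of a replicate's 30000 regions counted, 3273 members (89.1%) were overlapped in all 3 replicates. A replicate region with q of 0.05 or less overlapped 41.6, 66.3 and 35.4% of the members in replicates 1, 2 and 3. It did so in all 3 for 326 members (8.88%) and in none for 426 (11.6%). When the replicate summit had to lie within 100 bp of the member's, support by all 3 was 9.23%. A region ranked within the length of the IDR list in all 3 replicates overlapped 7 members (0.191%). That share was 17.2% over all pooled rows and 1.70% in the low-signal regions (85 of 5000). Rows that overlapped an IDR row were removed from the members, while 153 low-signal regions overlapped one. The part of that removal in the small number was not tested.

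Across members overlapped in both lists, the ranks in 2 replicates had Spearman correlations of -0.016 (replicates 1 and 2, n = 3457), -0.029 (1 and 3, n = 3312) and -0.056 (2 and 3, n = 3440). The same coefficient was between 0.83 and 0.86 in the IDR list, between 0.51 and 0.56 in the low-signal regions and between 0.78 and 0.81 in the whole pooled list. In the low-signal regions it rested on 1191 to 1274 of the 5000 rows, those overlapped in both lists. Low-signal rows that overlap an IDR row were kept there, so the sets are not filtered alike. These are descriptions, since the replicates also make up the pooled signal by which the sets were ranked; what sets the members' low values was not tested. Promoter share was 26.8% of the members with no support (interval 21.3 to 33.0%), 28.4 and 33.4% of those with 1 and 2 supporting replicates, and 37.2% of those supported by all 3 (interval 33.4 to 41.2%).

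The members of highest signal show how the replicates differed at single sites. Drip encodes an aquaporin, and its member, 93 bp upstream of the TSS, ranked 5867, 8244 and 7629 in replicates 1, 2 and 3. The Gk2 member, in an intron of a glycerol kinase gene 345 bp downstream of its TSS, ranked 3779, 19514 and 4057, so that replicate 2 stood far below the others. The CG14275 member, 617 bp upstream of the TSS, ranked 8221, 5353 and 6223. The member near shep, which encodes an RNA-binding protein, ranked 9152, 6701 and 5233. Among the 10 members of highest signal the lowest ranked replicate was between 7059 (near CG8028) and 19514 (Gk2).

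**Figure D4:**
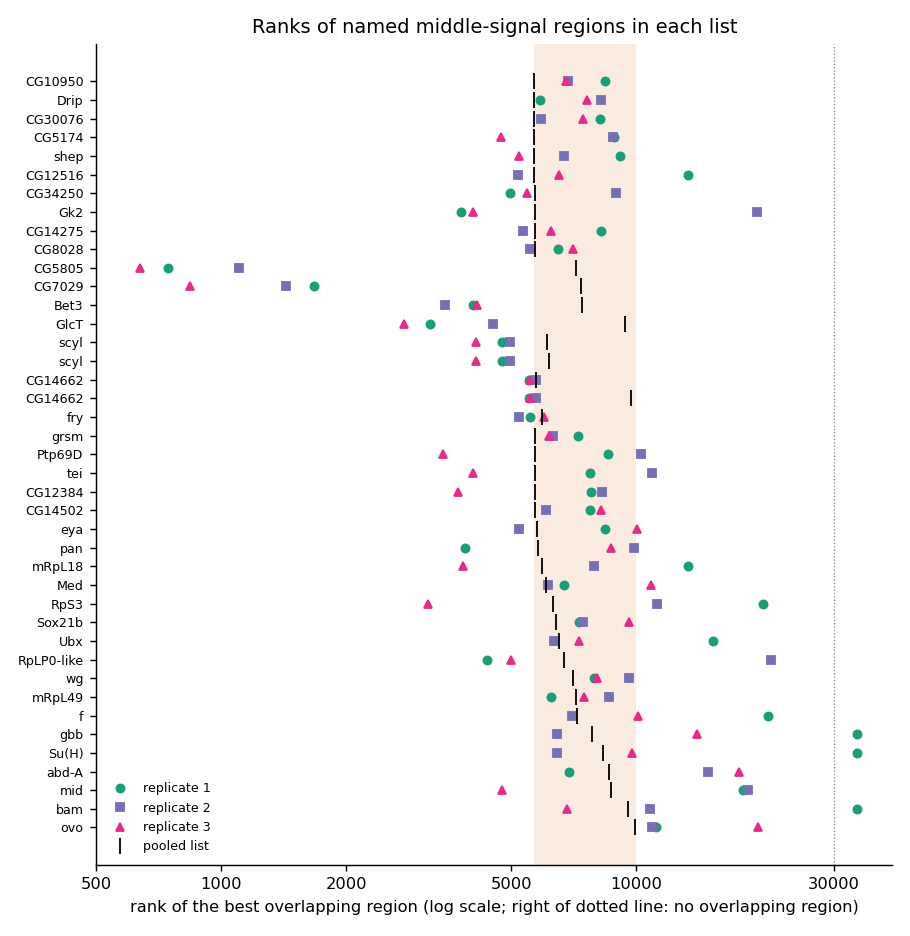
Rank (x axis, log scale) of the best-ranked overlapping region in replicates 1 to 3 (circles, squares, triangles) and in the pooled list (black ticks) for the named members, labelled by gene; a symbol right of the dotted line marks a replicate with no overlapping region, and shading the pooled ranks of the members. CG5805 is farthest to the left, at 744, 1105 and 638, while RpS3 runs from 3156 to 20260.

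A few members were overlapped by far stronger replicate regions than their pooled rank. The member 252 bp upstream of CG5805 had pooled rank 7179, while regions of rank 744, 1105 and 638 overlapped it in replicates 1, 2 and 3. Their summits lay 202, 205 and 199 bp to the left of the member's, and no pooled summit was nearer to them than that. Each replicate also had a weaker region within 3 bp of the member's own summit, of rank 6408, 11179 and 6970. The deposited pooled row thus sat beside the strongest position of all 3 replicate lists.

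Strong replicate summits away from the member's own were also found at 3 further promoters. At CG7029, pooled rank 7352, replicate regions of rank 1670, 1435 and 840 had summits 220, 199 and 158 bp away. At Bet3, which encodes a subunit of the TRAPP vesicle tethering complex, the pooled rank was 7415 and the ranks 4048, 3470 and 4133, with summits 248, 228 and 221 bp away. At GlcT, the gene of glucosylceramide synthase, the pooled rank was 9379 and the ranks 3185, 4527 and 2758, with summits 200, 214 and 127 bp away. At these genes the member was the nearest row of the pooled list used here to the strong replicate summits. Why that list holds no row at those summits is not known, so the pooled ranks at CG5805, CG7029, Bet3 and GlcT describe the member's own row and not the strongest position of the locus.

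The other members with the best support in all 3 replicates lay in introns or far upstream of genes. The pair of overlapping members about 5 kb upstream of scyl, which encodes an inhibitor of TOR signalling, ranked 6106 and 6179 in the pooled list and shared replicate regions of rank 4741, 4963 and 4116. The member at fry, the gene of a large regulator of NDR kinases, had pooled rank 5944 and replicate ranks 5555, 5232 and 6006. Its summit lay in an intron of fry but 72 bp upstream of a TSS of that gene, and thus near a promoter. The pair in an intron of plh, nearest to CG14662, had pooled ranks 5734 and 9713 and shared replicate regions of rank 5516, 5742 and 5557.

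The members were interspersed with the IDR regions. The median gap to the nearest IDR row was 3906 bp, from 13 to 3442851 bp, and 6536 bp for the low-signal regions. The gap was at most 1 kb for 729 members (19.8%) and over 10 kb for 1032 (28.1%). Promoter share was 37.3% (interval 33.8 to 40.9%) among the members within 1 kb of an IDR row and 30.6% (interval 28.9 to 32.3%) among the others. Support by all 3 replicates was 17.0% and 16.8% in those subsets. Another member overlapped 240 members, so these are not separate sites.

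By gene, 1917 of the 13945 protein-coding genes (13.7%) held a member summit within the gene or 1 kb upstream. An IDR summit as well was found in 978 of them, and 939 (6.73% of all genes) held a member and no IDR summit. Those 978 genes were 51.0% of the genes with a member and 31.5% of the 3106 genes with an IDR summit. The genes with a member alone had a median length of 3865 bp, against 5277 bp for genes with an IDR summit and 1776 bp for genes with neither. With members supported by all 3 replicates only, 186 genes had a member and no IDR summit. With ranks taken without replicate 1, 2 or 3 there were 583, 575 and 549, from 2617, 2670 and 2664 regions. Those sets kept 1860, 1739 and 1822 of the members (50.6, 47.3 and 49.6%), so values without one replicate describe regions that are in large part others.

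Long genes collected the most members. CG43658, fz2 and kirre held 13 each; fz2 encodes a Wnt receptor and kirre a cell adhesion protein of muscle founder cells. The translational repressor gene pum held 12. The glypican gene dally held 11 members beside 2 IDR summits, a lower IDR count than at the other 9 of the 10 leading genes. The genes Rbfox1, ftz-f1, mam and sick held 10 each. The nuclear receptor gene ftz-f1, at 50.7 kb, had the densest members of these at 19.3 per 100 kb, and kirre, at 394.15 kb, the sparsest at 3.29.

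At Sox100B itself no member was found. Its promoter region held an IDR row 406 bp from the TSS with pooled rank 1226, overlapped by regions of rank 1729, 1279 and 1261 in replicates 1, 2 and 3. The other pooled rows nearest to Sox100B had ranks from 10808 to 29947.

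Gene lists for tissues, pathways and gene families were read by how many of their genes held a member but no IDR summit, beside 6.73% of all coding genes. The count was 7 of 93 (7.53%) for cytosolic ribosomal protein genes, found by name and thus including relatives such as RpLP0-like, and 5 of 73 (6.85%) for mitochondrial ribosomal protein genes. Both shares were near that of all genes. Median gene length was 1.32 and 0.909 kb in these lists, 30.6 kb for Hox, 18.1 kb for epidermal and 4.87 kb for germ line genes. The counts cover the whole gene and were not adjusted for its length. Among developmental lists the counts were 2 of 8 Hox genes (Ubx, abd-A), 3 of 10 epidermal genes (among them wg and f), 2 of 14 somatic gonad genes (eya, abd-A), 2 of 10 germ line genes (bam, ovo), 1 of 13 heart and dorsal mesoderm genes (mid) and 1 of 8 Sox genes (Sox21b). In the signalling lists there were 2 of 14 for Wnt (pan, wg), 2 of 13 for Dpp/BMP (Med, gbb), 1 of 11 for Notch, Su(H), and 0 of 12 for EGFR-MAPK, where 11 genes had an IDR summit. The count was 0 in the hindgut and Malpighian tubule, midgut, muscle, neuronal, glial, tracheal, haemocyte, heat shock, ecdysone response and cell death lists. Any gene with a member in these lists also had an IDR summit. Genes with a member were 9 of 12 for ecdysone response, 7 of 14 for muscle and 5 of 14 for hindgut and Malpighian tubule. They were 4 of 10 for midgut, 4 of 11 for tracheal, 3 of 10 for glial, 1 of 13 for neuronal and 1 of 12 for haemocyte. The heat shock and cell death lists had 0, and among all coding genes the share was 13.7%.

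**Figure D5:**
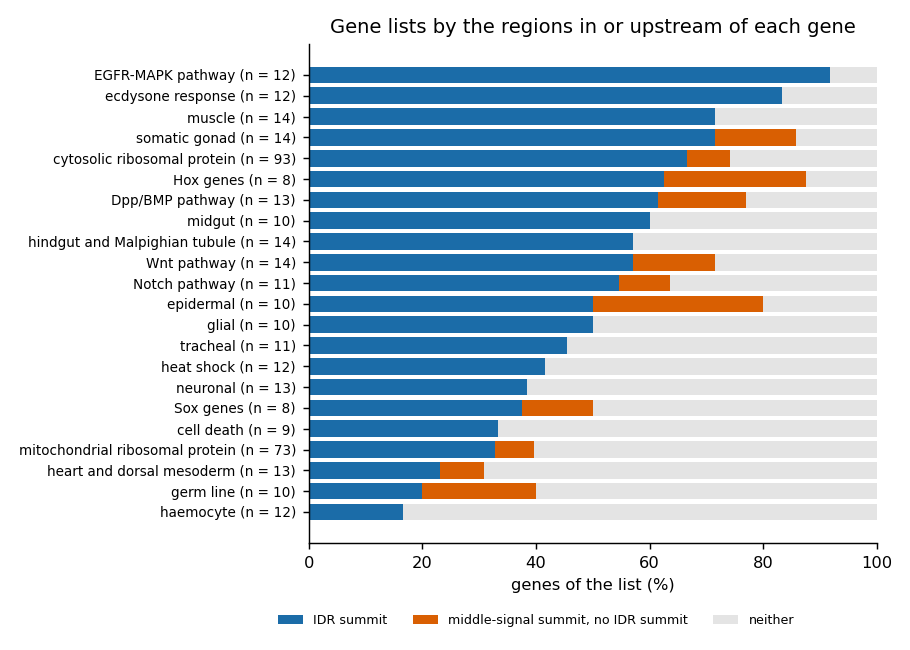
Percent of the genes of each list (x axis; number of genes in the label) with an IDR summit (blue), with a middle-signal summit and no IDR summit (orange) or with neither (grey) in the gene or 1 kb upstream. Orange is seen in 11 of the 22 lists, and among all coding genes it is 6.73%.

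At the genes of these lists the replicates were uneven. The member in an intron of eya, a cofactor gene needed in somatic gonad precursors, had pooled rank 5761 and replicate ranks 8428, 5215 and 10059. The member in wg, a Wnt ligand gene, had pooled rank 7032 and replicate ranks 7897, 9642 and 8054, and the one in Sox21b had 6429 with 7300, 7448 and 9600. The member in pan, the gene of the Wnt pathway's TCF factor on chromosome 4, had pooled rank 5813 and replicate ranks 3862, 9904 and 8722. At wg, Sox21b and pan the member was thus within the first 10000 of every replicate. The RpS3 member, 81 bp upstream of a ribosomal protein gene, had pooled rank 6290 and replicate ranks 20260, 11233 and 3156, so that only replicate 3 placed it high.

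The strongest members at Ubx and abd-A, the Hox genes with a member but no IDR summit, were not supported by all replicates. Ubx had ranks 15295, 6332 and 7287, and abd-A 6898, 14930 and 17726. Members at the other Hox genes were not looked up by replicate. No region of replicate 1 overlapped the members at Su(H), the Notch pathway transcription factor gene, at gbb, a BMP ligand gene, or at bam, a germ line differentiation gene. Their ranks in replicates 2 and 3 were 6464 and 9780, 6440 and 14014, and 10818 and 6812. The member at mid, a T-box gene, ranked 4745 in replicate 3 and 18083 and 18629 in replicates 1 and 2. Several list genes shared the member with a neighbour whose start was nearer, among them Med with CycG, gbb with ytr, and RpLP0-like with 14-3-3zeta.

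The Sox core, the 6 letters ACAAAG or ACAATG read on both strands, lay in 950 of the 3673 summit windows of 201 bases, or 25.9% (interval 24.5 to 27.3%). It lay in 24.9% of the IDR windows, 24.8% of the low-signal windows and 25.5% of all pooled windows, with intervals that overlapped. The same bases in another order, AACAGA or AACTGA, lay in 23.5% of the members' windows (interval 22.1 to 24.9%) and in 24.3% of all pooled windows. In the replicates' own middle bands the Sox core share was 25.2% ± 0.953 (SD, n = 3). No test was made of these shares. From the lowest to the highest GC class, the limits being 30, 35 and 40%, the Sox core was in 23.6, 26.3, 25.03 and 29.4% of the members' windows and in 25.1, 23.7, 24.9 and 25.2% of the low-signal windows. The reordered letters were in 20.7, 22.7, 25.1 and 26.6% of the members' windows and in 22.2, 23.9, 27.2 and 23.6% of the low-signal windows, so that both patterns were higher in the members over 40% GC and lower under 30%. Of the 6 windows shown, Gk2, CG14275 and CG14662 hold the core. They were picked to show windows with and without it, so they give no share. In windows of that length, 50 bp on each side of the summit, the core lay in 13.1% of the members.

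Among the other patterns, each counted on both strands, the DNA replication-related element (DRE), a promoter site of the factor DREF, lay in 53 member windows. That was 1.44% (interval 1.08 to 1.88%), against 1.79% of IDR windows, 0.60% of low-signal windows (interval 0.405 to 0.855%) and 1.14% of all pooled windows. In promoter members it was in 3.07% and in the remaining members in 0.680%. A GATA site, the letters GATA after A or T and before A or G, as in the windows of CG5805 and eya, lay in 40.4% of the members (interval 38.8 to 42.0%), 42.1% of the IDR list, 35.8% of the low-signal regions (interval 34.5 to 37.2%) and 37.9% of all pooled windows. From the lowest to the highest GC class (under 30, 30 to 35, 35 to 40 and over 40%) the members had 43.8, 42.5, 41.1 and 32.0%, the IDR list 45.4, 43.2, 44.0 and 30.8%, and the low-signal regions 44.6, 39.0, 37.9 and 27.1%. The members were thus above the low-signal regions in 3 of the 4 classes, with overlapping intervals in each; the part of GC content in the difference was not tested.

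Of the remaining patterns, GAGAG, the site of the GAGA factor, lay in 19.1% of the members and 19.5% of all pooled windows, the E-box CAGCTG in 6.72 and 6.51%, and the Zelda site CAGGTA in 3.70 and 3.82%. TAATTA, read by many homeodomain proteins and present in the RpS3 window, lay in 18.0% of the members (interval 16.7 to 19.3%) and 20.7% of the IDR list (interval 19.6 to 21.8%), with 18.5% in all pooled windows. A CA repeat of 8 bases lay in 4.38% of the members (interval 3.74 to 5.10%), 2.87% of the IDR list (interval 2.45 to 3.34%), 4.20% of the low-signal regions and 3.94% of all pooled windows. Matches of this kind describe letters in a window and are not evidence of binding by any factor.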

How the data were processed

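The deposited files are region lists of dm6 ChIP-seq in narrowPeak layout, with 1 list for each of 3 replicates, 1 pooled and 1 after IDR. The authors' signal score (no unit stated) and −log10 q were used as deposited; which peak caller, aligner and control file made them is not stated in these sources. The lists give no depth. Regions were ranked by score, ties in file order, and summits taken as start plus the deposited offset.

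Genes came from Ensembl release 115 and sequence from RefSeq release 6. Location was assigned in the order coding sequence, 5′ UTR, 3′ UTR, intron, intergenic. Shares have exact (Clopper-Pearson) 95% intervals, differences Newcombe intervals, and tests are two-sided Fisher's exact tests (SciPy 1.17.1, pandas 2.3.3, NumPy 2.4.6, Python 3.11.15); the functions were checked on data with known answers. The labels say biological replicates without naming separate collections, so spreads between replicates may be technical. Named genes are Sox100B, the genes nearest to the 10 strongest members, to the 10 with the best lowest replicate rank and to the 10 strongest promoter members, the 10 genes with most members, and up to 2 genes per list. Of the list symbols, 6 had no match in the annotation. The members, lists and tests were chosen with earlier results of these data known. With 1 group, replicate numbers pair no samples. Alternatives changed the promoter distance, point, gene set, comparator, support rule and replicates. Rankings without one replicate ordered the pooled rows by the mean of their best overlapping ranks in the other lists. A list without an overlapping region counted as the rank after its last. 1 named member is not reported here.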

Additional observations from a re-analysis of the deposited data

How the results depend on the processing

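The differences in promoter share from the IDR list and from the low-signal regions kept their direction and passed the test under every alternative run. They ranged from -19.0 to -4.40 points and from 2.99 to 17.3 points. No alternative put back the rows removed from the members for an overlap with an IDR row. The promoter share itself moved to 22.5% within 500 bp, 44.9% within 2 kb, 39.4% with genes of every biotype, 30.6% over 1 kb from every IDR row and 34.3% at a −log10 q of at least 2. It was 33.6 to 34.2% with ranks taken without one replicate and 34.7, 35.9 and 36.8% in the replicates' own lists. Support by all 3 replicates was 0.191% at ranks within the length of the IDR list, 89.1% with any region, 8.88% at q of 0.05 or less, 9.23% with summits within 100 bp, and 27.2 to 33.3% without one replicate. Genes with a member and no IDR summit fell to 186 with members supported by all 3, and to 549 to 583 without one replicate, where the band held fewer members by construction. The median gap to an IDR row was 4338 bp from summit to summit and 3522.5 to 3974 bp without one replicate. The Sox core share fell to 13.1% in windows of 50 bp on each side, which are shorter. Under the rankings without one replicate, differences from the low-signal regions ran from -0.0256 to 3.45 points for introns. They ran from -2.30 to -0.656 (without replicate 1, -1.85) for intergenic DNA and from -1.83 to -0.319 (without replicate 3, -0.516) for the X chromosome. Such rankings also replace the pooled signal by mean replicate ranks, and the cause was not tested. The 100 bp rule, and the rankings without one replicate for classes, genes, gaps and patterns, were chosen after seeing the data. No paired analysis was possible because all samples belong to 1 group.
Without read counts the precision of single ranks is unknown. Regions that overlap or neighbour each other are not independent. Without an untagged group, the signal of the members has no background measured in the same way.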
